A study of Homo sapiens with 12 samples.

Results

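H/ACA small nucleolar RNAs (SNORA genes) and small Cajal body RNAs (SCARNA genes) were described across 4 groups of human breast cancer cells. Members were all genes whose probe sets carry 1 platform symbol that starts with SNORA or SCARNA, with the probe set of the highest mean taken for each gene. This gave 77 genes, 61 SNORA and 16 SCARNA, from 83 probe sets, out of 18417 genes measured in the same way. A further 20 symbols of these families, SNORA73A and SCARNA13 among them, lie only on probe sets shared with other symbols and were not analysed here. The genes were picked by symbol, with earlier results of these data known, and measured values entered through the choice of probe set by its mean over the arrays.

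Total RNA was hybridised to Affymetrix whole-transcript gene arrays, and every value below is a log2 expression value unless a fold is named. All cells were labelled MDA-MB-231 1833, a subline of a triple-negative breast cancer line known for spreading to bone. Control cells had no genotype label (3 arrays), shHMGA2 cells carried a lentiviral pLKO.1 shRNA against HMGA2 and grew in puromycin (3 arrays), and the remaining lines carried lentiviral pLVX-TRE3G-Flag-Tet1 or pLVX-TRE3G-HOXA9 together with the Tet-On 3G regulator pCMV-Tet3G (2 usable arrays each). The Tet1 and HOXA9 lines were selected in puromycin and G418 and grew in tetracycline-approved serum, and their source names give 1834 where titles and cell line fields give 1833. Whether each line was a clone or a pool is not stated in the labels, and nothing says that the labelled biological replicates were separate transductions. The third deposited column of Tet1 and that of HOXA9 are averages of the other columns of their group and were left out. The question behind the series, per its design text, is which genes respond to HMGA2, TET1 and HOXA9.

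H/ACA RNAs fold into hairpins followed by a short ACA box and assemble with dyskerin, NOP10, NHP2 and GAR1 into particles that convert chosen uridines of ribosomal RNA to pseudouridine. Small Cajal body RNAs do the same for spliceosomal RNAs inside Cajal bodies, and some carry C/D boxes, which direct ribose methylation, in place of or beside the H/ACA hairpins. In vertebrates most of these RNAs are cut out of the introns of host genes, many of which encode parts of the translation machinery.

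All 77 genes lay inside another gene of the RefSeq table (GRCh38.p14), which gives positions without strand, and the median length was 135 bases (range 123 to 421). A single measured gene held 63 of them, counting 53 different hosts, and 12 lay in genes of ribosomal proteins. The starts of 7 such hosts in the RefSeq promoter table (GRCh38.p14) are shown. They are of 1 kind, and any link to the levels of the guide RNAs inside these hosts was not tested. Each is given as the 15 bases before and the first 15 bases from the annotated start, 5′ to 3′ on the gene's strand, with the first 5 transcribed bases in capitals.
RPLP2 (chr11:809952-809981, plus strand, holds SNORA52): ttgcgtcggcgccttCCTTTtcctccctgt
RPL27A (chr11:8682777-8682806, plus strand, holds SNORA3A and SNORA3B): ttggcgaaggccttcCTTTTtcgtctgggc
RPL12 (chr9:127451392-127451421, minus strand, holds SNORA65): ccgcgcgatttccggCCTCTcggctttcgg
RPSA (chr3:39406705-39406734, plus strand, holds SNORA6 and SNORA62): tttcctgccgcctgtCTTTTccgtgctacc
RPS12 (chr6:132814554-132814583, plus strand, holds SNORA33): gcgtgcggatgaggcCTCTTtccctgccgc
RPL39 (chrX:119791616-119791645, minus strand, holds SNORA69): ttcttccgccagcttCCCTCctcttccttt
RPL21 (chr13:27251543-27251572, plus strand, holds SNORA27): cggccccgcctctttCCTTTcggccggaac
The motif searched was a C at the annotated start followed by 4 bases that are each C or T, on the gene's own strand only. All 7 of these starts held it, as did 18 of the 86 promoters of genes that hold a guide RNA (20.9%) and 4.1% of all 35116 promoters in the table. A CACGTG, the same on both strands, stood in none of the 7 promoters of 300 bases, in 5.8% of the host promoters and in 7.3% of all promoters.

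The 10 arrays formed a control and shHMGA2 set and a Tet1 and HOXA9 set, with array medians of 7.21 to 7.28 and 7.66 to 7.71 respectively. Over the 77 guide RNAs, correlations between arrays were 0.977 to 0.995 within the first set, 0.994 to 0.998 within the second and 0.847 to 0.872 between them. Since each group lies wholly in 1 set, array set, possible parent subline, serum, selection and construct cannot be told apart in any comparison of Tet1 or HOXA9 with control. HMGA2 lies only on a probe set shared with ELAC2, which averaged 9.56 in control and 8.81 in shHMGA2. TET1 averaged 6.56 in control, 8.97 in shHMGA2, 7.07 in Tet1 and 7.30 in HOXA9. Within the second set its mean was thus lower in the libraries labelled Tet1 than in those labelled HOXA9, against the label. The arrays lay close (6.98 and 7.16 in Tet1, 7.20 and 7.40 in HOXA9), and no test of this gap is given. Tet1 and HOXA9 below therefore name libraries by their labels. HOXA9 itself was not analysed here. Of the markers of this cell line, VIM, CD44 and CAV1 were bright in control (12.84, 12.92 and 12.92), while ESR1, PGR and CDH1 were at 6.05, 5.53 and 5.66, all under 6.22, the 30th percentile over the probe sets of the 10 arrays. This is called the dim level, and since the table holds no detection calls a value under it is not known to lie above background. The markers named are part of a list of 6 expressed genes and a list of 5 low or absent genes. ERBB2 and EPCAM, the others of the low list, made up most of its summed linear level in control (904.7 to 1013), so the low list was not dim throughout.

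The guide RNAs spanned a wide range of signal, with control means of 4.48 to 11.77. Their median was 7.25 in control, 7.46 in shHMGA2, 9.06 in Tet1 and 8.74 in HOXA9, and 59, 64, 67 and 67 of the 77 had a group mean above the dim level. The highest means over all arrays belonged to SNORA23 (12.51), SNORA71D (12.43), SNORA3A (11.86), SNORA71C (11.82) and SNORA68 (11.62), and the lowest to SCARNA23 (4.77), SNORA16B (5.16) and SNORA70F (5.29). Probe sets differ in how brightly they report the same amount of RNA, so this order is that of signals. SNORA23, from an intron of the importin gene IPO7, read 11.76, 11.74 and 11.81 in control, 11.69, 11.68 and 11.84 in shHMGA2, 13.60 and 13.65 in Tet1 and 13.70 and 13.67 in HOXA9. Its control and shHMGA2 arrays overlapped, and its 4 remaining arrays all lay higher. In 9 genes no group mean passed the dim level (SCARNA14, SCARNA23, SNORA16B, SNORA2A, SNORA2B, SNORA36C, SNORA58, SNORA70B and SNORA70F).

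**Figure D1:**
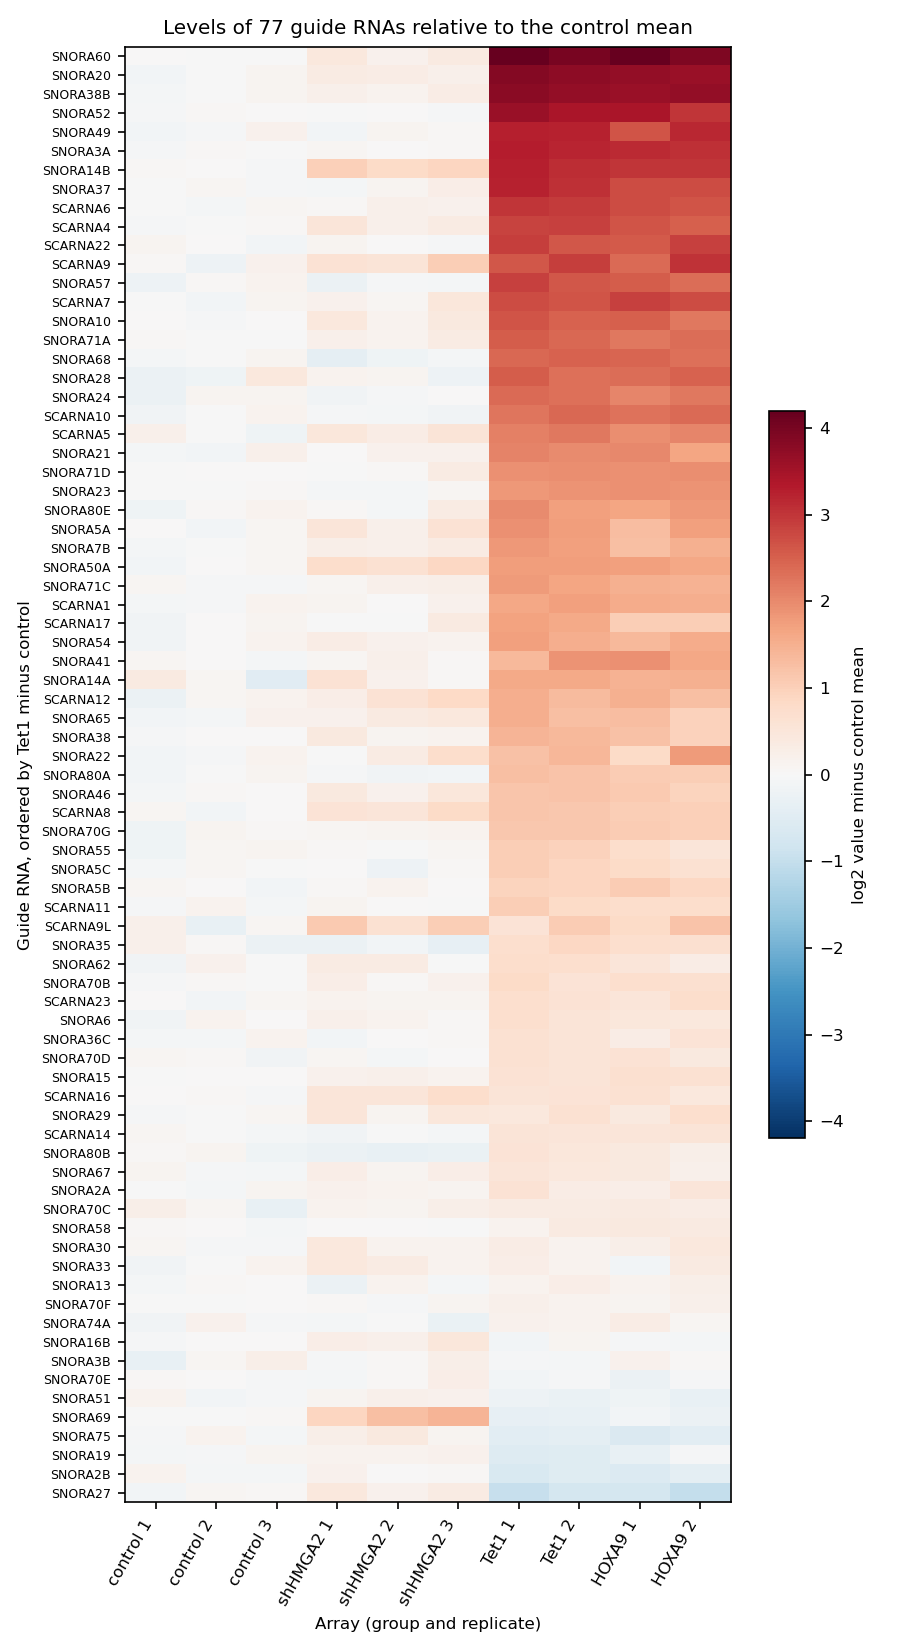
Each row is 1 of the 77 guide RNAs and each column 1 of the 10 arrays; colour gives the log2 value minus that gene's control mean, from blue (lower) to red (higher). Rows are ordered by Tet1 minus control, from SNORA60 (4.14) at the top to SNORA27 (-0.84) at the bottom; the 4 Tet1 and HOXA9 arrays resemble each other, and SNORA69 stands out as red in the 3 shHMGA2 arrays alone.

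In shHMGA2 cells 25 guide RNAs were higher than in control and 1 was lower (limma, with the Benjamini-Hochberg adjusted p, taken over all 18417 genes, under 0.05), against 13.6% of all genes higher and 12.6% lower. That is 32.5% of the guide RNAs higher. Their median difference was 0.15, with a range of -0.28 to 1.20, and the median of all genes was -0.03. Arrays of the groups did not overlap for 28 guide RNAs that were higher and 1 that was lower, where 18.8% and 21.7% of all genes showed the same. Without control replicate 2, 15 guide RNAs passed as higher, beside 11.7% of all genes. In bulk RNA a change in the mix of cells and a change in RNA per cell cannot be told apart.

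Small Cajal body RNAs made up 7 of the 25, from 16 measured. SCARNA9, a C/D guide for U2 spliceosomal RNA, and its copy SCARNA9L read 7.62, 7.37 and 7.76 and 6.53, 6.03 and 6.41 in control. In shHMGA2 they read 8.19, 8.11 and 8.63 and 7.42, 6.97 and 7.35, above every control array in both cases. The differences were 0.73 (SE 0.17, adjusted p = 0.0088) and 0.92 (SE 0.17, adjusted p = 0.0019), but a second probe set of each gene gave 0.29 and 0.25, and copies of such similar sequence may share signal. SCARNA8, an H/ACA guide from the augmin gene HAUS6, read 6.89, 6.71 and 6.85 in control and 7.39, 7.32 and 7.63 in shHMGA2 (difference 0.63, SE 0.08, adjusted p = 0.00016). SCARNA16, an H/ACA guide in SEC14L1, moved from 8.73, 8.77 and 8.67 to 9.24, 9.23 and 9.46 (0.59, SE 0.07, adjusted p = 0.00015). For both genes the lowest shHMGA2 array lay well above the highest control array. The mixed guides SCARNA12 and SCARNA5 rose by 0.58 and 0.44 and the H/ACA guide SCARNA4 by 0.36, while SCARNA6, a mixed guide from the same host as SCARNA5, differed by 0.15 (adjusted p = 0.14). By guide type, 3 of 8 H/ACA, 1 of 3 C/D and 2 of 4 mixed Cajal body RNAs passed as higher, with SCARNA9L not classed.

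Among the small nucleolar RNAs, SNORA69 had the widest difference. It read 5.29, 5.29 and 5.36 in control, 6.20, 6.58 and 6.75 in shHMGA2, 4.95 and 5.01 in Tet1 and 5.18 and 5.07 in HOXA9. Only the shHMGA2 arrays approached or passed the dim level, and the control value is not known to lie above background. The measured difference was 1.20 (SE 0.11, 2.30-fold, adjusted p = 1.4e-05). SNORA14B, from an intron of the mitochondrial import receptor TOMM20, read 5.62, 5.59 and 5.53 in control and 6.59, 6.37 and 6.49 in shHMGA2 (0.90, SE 0.07, adjusted p = 3.1e-06), again from a dim control level. SNORA50A, in the deadenylase scaffold gene CNOT1, rose from a bright level: 8.56, 8.71 and 8.77 in control and 9.42, 9.32 and 9.57 in shHMGA2 (0.76, SE 0.08, adjusted p = 2.6e-05). The groups did not overlap for any of these 3.

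The rest of the 18 small nucleolar RNAs that passed changed by less, SNORA5A by 0.45, SNORA29 by 0.38 and SNORA46 by 0.37 at the upper end. SNORA5A lost its call without control replicate 2 or shHMGA2 replicate 3 (adjusted p = 0.056 and 0.066). SNORA29, near the dim level, lost its call without control replicate 1 or 2 or shHMGA2 replicate 1 or 3 (adjusted p 0.059 to 0.088). SNORA80B, in the ornithine decarboxylase gene ODC1, was the 1 that fell, from 8.29, 8.33 and 8.05 to 7.97, 7.91 and 7.96 (-0.28, SE 0.08, adjusted p = 0.022). Its groups did not overlap, but leaving out control replicate 1 or 2 or shHMGA2 replicate 2 ended the call (adjusted p 0.073 to 0.087). SNORA30 lay just inside the threshold (0.26, adjusted p = 0.0496) and SNORA65 just outside it (0.33, adjusted p = 0.0531).

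**Figure D2:**
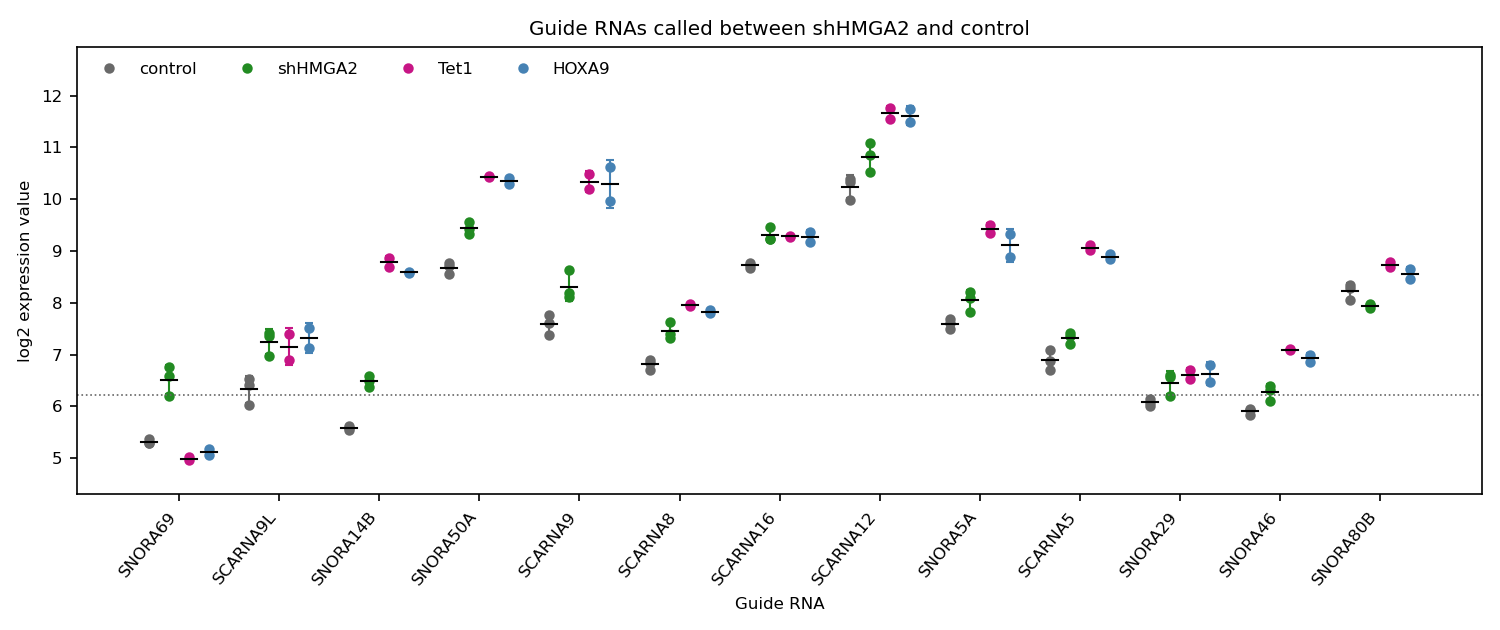
Points are log2 values of single arrays for the 12 guide RNAs with the largest rise and the 1 that fell in shHMGA2, by group; black ticks are group means, bars are the SD, and the dotted line is the dim level (6.22). SNORA69 is high in shHMGA2 alone, while SNORA14B, SNORA50A and SCARNA9 are higher still in Tet1 and HOXA9.

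Other RNAs also differed between these groups. Of 9 traits of embryonic kidney lines, 5 were higher in shHMGA2 (HOXD10, NEFM, NEFL, CITED1 and WT1), and their summed linear level over the list was 996 to 1083 in control and 2637 to 3427 in shHMGA2, with 1227 to 1365 in Tet1 and HOXA9. CDKN2A, CDKN2B and MTAP, which lie in a stretch that MDA-MB-231 has lost, were all higher in shHMGA2, with summed levels of 370.3 to 430.5 in control and 1234 to 1743 in shHMGA2, with 310.6 to 361.5 in Tet1 and HOXA9. Of 6 genes listed as expressed in MDA-MB-231, 3 were lower in shHMGA2 and none higher by limma (MMP14 -0.69, CAV1 -0.26 and CD44 -0.25, list median -0.21), with summed levels of 24359 to 25140 in control and 19257 to 22086 in shHMGA2. The part of these RNAs in the guide RNA differences was not tested. No blood or fibroblast marker passed as higher in shHMGA2 (0 of 4 and 0 of 6 by limma).

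Transcripts of genes for proteins that act on these RNAs differed by small amounts in shHMGA2. Of 9 genes of the H/ACA core and its assembly, 4 were higher: RUVBL1, an assembly ATPase (0.32), NHP2 (0.31), NAF1, the early partner that GAR1 replaces (0.27), and SHQ1, the chaperone of dyskerin (0.26). DKC1, which encodes dyskerin, differed by 0.11 (adjusted p = 0.20). Of 16 measured Cajal body and SMN complex genes 6 were higher, led by coilin (COIL, 0.49), GEMIN8 (0.44) and USPL1 (0.41). Of 17 trimming, debranching and decay genes 5 were higher and 1 lower, among them the exosome nuclease DIS3 (0.57), the lariat debranching enzyme DBR1 (0.42) and the exonuclease TOE1 (-0.24). C/D core and assembly genes counted 3 higher and 1 lower of 7, and nucleolus and polymerase I genes 3 higher of 10. TERC, the telomerase RNA, which ends in an H/ACA domain, was at 9.83, 9.67 and 9.87 in control and 9.97, 9.75 and 9.88 in shHMGA2 (0.08, adjusted p = 0.57), with overlapping arrays.

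Between the libraries labelled Tet1 and HOXA9, which belong to 1 set, no guide RNA passed the test (limma, 0 higher and 0 lower), and the background was 0.114% of all genes higher and 0.32% lower. At an unadjusted p under 0.05, 15 were higher in Tet1 and 1 was lower, against 3.87% and 5.29% of all genes. The difference was above 0 in 60 of the 77, with a median of 0.09, where all genes had a median of 0.01. Arrays did not overlap for 32 guide RNAs that were higher in Tet1 and 6 that were lower, against 20.8% and 20.5% of all genes. The 95% confidence interval of a difference reached a median of 0.22 to either side and at most 0.59, so with 2 arrays per group differences of that size could not be told from 0. Of 6 fibroblast markers, 2 were higher in Tet1 than in HOXA9 (COL1A1 0.56 and COL1A2 0.46) and all 6 differences were above 0 (median 0.23), and their part in the guide RNA values was not tested.

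SCARNA17, a C/D guide and the longest of the RNAs, came nearest to the threshold. It read 10.22 and 10.14 in Tet1 and 9.56 and 9.57 in HOXA9, after 8.41, 8.54 and 8.66 in control. The Tet1 arrays were the highest of all 4 groups, and the difference from HOXA9 was 0.61 (SE 0.12, adjusted p = 0.06). It passed when only these groups were fitted (adjusted p = 0.0058) and when all arrays were quantile normalized together (0.68, adjusted p = 0.019). It did not pass with equal array medians, nor when only genes above the dim level were fitted, so its call depended on the processing. SNORA19, in the translation factor gene EIF3A, pointed the other way, at 6.39 and 6.43 in Tet1 and 6.63 and 6.88 in HOXA9 (-0.35, adjusted p = 0.16).

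The libraries labelled Tet1 had 65 guide RNAs higher and 6 lower than control, against 53.9% of all genes higher and 23.2% lower. Those labelled HOXA9 had 65 higher and 4 lower, against 54% and 21.6%. These comparisons share the control arrays and cross the array sets, so their values are given side by side. The median difference of the guide RNAs was 1.23 in Tet1 and 1.03 in HOXA9, and that of all genes was 0.25 and 0.24. After all arrays were quantile normalized together, the median of all genes moved to -0.00 and -0.02 and the guide RNAs counted 56 higher and 9 lower in Tet1 and 51 and 9 in HOXA9, beside 32.6% higher and 33.3% lower and 29.7% and 34% of all genes. With every array shifted to 1 median, all genes had medians of -0.22 and -0.21, and the guide RNAs counted 48 higher and 13 lower in Tet1 and 48 and 12 in HOXA9, beside 21.9% higher and 51.4% lower and 20.3% and 51.1% of all genes. The median of the guide RNAs was then 0.77 in Tet1 and 0.58 in HOXA9.

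Large differences were common among them. At least a 2-fold higher value that passed the test was found for 42 guide RNAs in Tet1 and 42 in HOXA9, against 6.44% and 5.6% of all genes. At least a 4-fold higher value was found for 22 and 20, against 0.527% and 0.581%. Of the 24 genes of the whole array that were at least 8-fold higher in Tet1, 8 were guide RNAs, as were 6 of the 21 in HOXA9.

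SNORA60, in the transcript SNHG11, showed the widest difference. It read 6.43, 6.41 and 6.40 in control, 6.86, 6.60 and 6.79 in shHMGA2, 10.69 and 10.41 in Tet1 and 10.74 and 10.34 in HOXA9. All 4 later arrays lay far above the first 6, by 4.14 in Tet1 (SE 0.12, 17.6-fold, adjusted p = 4.7e-10) and 4.12 in HOXA9 (17.4-fold, adjusted p = 5.9e-10). The control level was only just above the dim level, so these folds may understate the change in RNA. SNORA38B, in the nucleolar protein gene NOL11, started from a brighter level, at 8.28, 8.33 and 8.46 in control, and reached 12.14 and 12.04 in Tet1 and 11.98 and 12.05 in HOXA9 (differences 3.74 and 3.66). SNORA52, in RPLP2, read 7.89, 8.01 and 7.96 in control, 11.57 and 11.37 in Tet1 and 11.37 and 10.96 in HOXA9 (3.52 and 3.21). In each of these the shHMGA2 arrays stayed within 0.5 of the control mean, and no array of one set reached the values of the other. Within that span SNORA38B passed as higher in shHMGA2 (0.23, adjusted p = 0.021), and every SNORA60 array of shHMGA2 lay above its control arrays. SNORA49 followed with differences of 3.25 and 2.90, SNORA14B with 3.20 and 3.01, and SNORA37, in the methyl-CpG binding gene MBD2, with 3.15 and 2.74.

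All 16 small Cajal body RNAs were higher in Tet1 and in HOXA9, with medians of 1.66 and 1.46, as deposited. With array medians set equal SCARNA14, SCARNA16 and SCARNA23 no longer passed in either group (0.05 to 0.19), nor did SCARNA9L in Tet1 (0.36). The C/D guides SCARNA9 (2.75 in Tet1 and 2.71 in HOXA9) and SCARNA7 (2.70 and 2.80), the mixed guide SCARNA6 (2.96 and 2.69) and the H/ACA guides SCARNA4 (2.85 and 2.58) and SCARNA22 (2.77 and 2.73) led them. SCARNA22, which lies in the histone methyltransferase gene NSD2, read 7.71, 7.59 and 7.46 in control, 10.50 and 10.21 in Tet1 and 10.16 and 10.47 in HOXA9. SCARNA10, a mixed guide for U5 spliceosomal RNA in the condensin gene NCAPD2, read 8.09, 8.20 and 8.38 in control, 10.46 and 10.64 in Tet1 and 10.51 and 10.60 in HOXA9. For both genes the Tet1 and HOXA9 arrays interleaved, some 2 units or more above control. By guide type the medians in Tet1 were 1.03 for 8 H/ACA, 2.70 for 3 C/D and 2.25 for 4 mixed Cajal body RNAs. The chosen probe set of SCARNA17 gave 1.64 in Tet1 and another gave 2.76, so probe sets of a gene did not always give the same size.

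A few small nucleolar RNAs were lower in the Tet1 and HOXA9 arrays. SNORA27, from RPL21, read 7.00, 7.22 and 7.18 in control, 7.57, 7.31 and 7.47 in shHMGA2, 6.17 and 6.40 in Tet1 and 6.41 and 6.12 in HOXA9. The 3 levels did not overlap: shHMGA2 was highest (0.32, adjusted p = 0.031), and Tet1 and HOXA9 were lowest (-0.84, adjusted p = 2.1e-05, and -0.87, adjusted p = 1.9e-05). SNORA75, from the nucleolin gene NCL, read 8.97, 9.16 and 8.93 in control, 9.28, 9.42 and 9.13 in shHMGA2, 8.56 and 8.61 in Tet1 and 8.42 and 8.56 in HOXA9. It differed from control by 0.26 in shHMGA2 (adjusted p = 0.042), with overlapping arrays, and by -0.43 and -0.53 in Tet1 and HOXA9, where no array reached control. SNORA2B differed by -0.57 and -0.49, at dim levels throughout, and SNORA51, from the C/D core gene NOP56, by -0.24 and -0.25. SNORA51 lost its call without control replicate 1 in both comparisons, without Tet1 replicate 2 in the first and without HOXA9 replicate 2 in the second (adjusted p 0.056 to 0.13). SNORA19 differed by -0.53 in Tet1 and by -0.18 in HOXA9 (adjusted p = 0.06), and SNORA69 by -0.33 in Tet1 (adjusted p = 0.029) and -0.19 in HOXA9 (adjusted p = 0.18), all at or near dim levels for SNORA69. SNORA69 in Tet1 lost its call without control replicate 3, Tet1 replicate 1 or Tet1 replicate 2 (adjusted p 0.071 to 0.13). These directions held under both other scalings.

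Near the threshold, SNORA30 (0.23, adjusted p = 0.0467) was just inside and SNORA13 (0.21, adjusted p = 0.078) just outside in Tet1, and SNORA70F (0.16, adjusted p = 0.043) was just inside in HOXA9 with SNORA19 just outside. SNORA3B, SNORA13, SNORA33, SNORA70E and SNORA74A passed in none of the 4 comparisons.

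The plot of small RNA classes sets the guide RNAs beside their nearest relatives. Of 115 C/D box small nucleolar RNAs, 43 were higher and 42 lower in Tet1 (median -0.03) and 41 and 41 in HOXA9 (median -0.03). Of 23 spliceosomal RNAs, the targets of the Cajal body guides, 21 were higher and 0 lower in Tet1 by limma (median 1.19) and 21 and 1 in HOXA9 (median 1.40). Of 189 microRNA precursors, 120 were higher and 31 lower in Tet1 (median 0.41) and 123 and 22 in HOXA9 (median 0.42), and of 4 vault and Y RNAs 3 and 4 were higher. In shHMGA2 the C/D box RNAs counted 12 higher and 1 lower (median 0.02), the spliceosomal RNAs 2 and 1, the microRNA precursors 6 and 15 and the vault and Y RNAs 2 and 0. Differences between the classes were not tested. With array medians set equal, the C/D box RNAs counted 28 higher and 71 lower in Tet1 and the spliceosomal RNAs 16 and 2. The shares of all genes in Tet1 were then 21.9% higher and 51.4% lower. The microRNA precursors then counted 49 higher and 82 lower in Tet1 (median -0.06) and 55 and 77 in HOXA9 (median -0.04), and after joint quantile normalization 69 and 45 and 66 and 38.

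**Figure D3:**
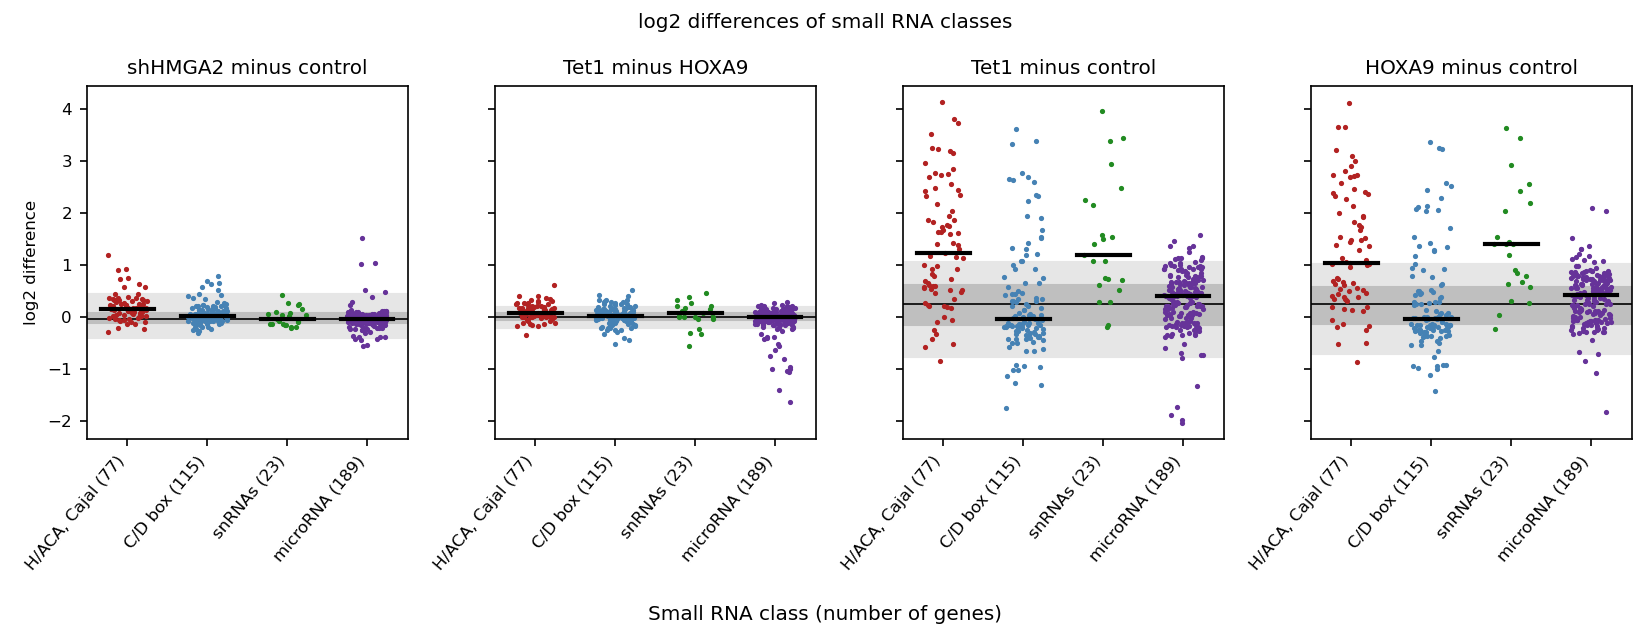
Points are log2 differences of single genes in 4 small RNA classes, with the number of genes in brackets, in each of the 4 comparisons; thick bars are class medians, the thin line is the median of all genes, and the dark and pale grey bands hold the middle 50% and 90% of all genes. In Tet1 minus control the H/ACA and Cajal body RNAs (median 1.23) and snRNAs (1.19) sit mostly above the bands, and C/D box RNAs (-0.03) spread to both sides.

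Guide RNAs cut from introns can be read beside the spliced RNA of their host. Over 63 pairs of a guide RNA and its 1 measured host in shHMGA2, 43 pointed the same way (Pearson's r 0.38, Spearman's rho 0.36, across genes that share arrays and partly hosts). Of the 21 guide RNAs of these pairs that passed, the host passed in the same direction for 11, in the opposite direction for 1 and not at all for 9. SCARNA8 and HAUS6 rose by 0.63 and 0.71, SNORA14B and TOMM20 by 0.90 and 0.44, and SNORA50A and CNOT1 by 0.76 and 0.25. SCARNA16 rose by 0.59, while SEC14L1, its 1 measured host, fell by 0.20 (adjusted p = 0.0488), the 1 opposite pair. SCARNA16 also lies inside SNHG20, which was not measured, so which gene it is cut from is not known here.

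In Tet1 minus control 21 of the 63 pairs pointed the same way (r 0.13, rho 0.13), and in HOXA9 minus control 25 did (r 0.11, rho 0.12). Of 59 guide RNAs that passed in Tet1, the host passed in the same direction for 18, in the opposite direction for 31 and not at all for 10. Hosts counted 17 higher and 28 lower in Tet1 (median -0.17) and 17 and 24 in HOXA9 (median -0.12). With array medians set equal, hosts counted 6 higher and 41 lower in Tet1, and after joint quantile normalization 14 and 25. Of all genes in Tet1, 53.9% were higher and 23.2% lower as deposited. These shares were 21.9% and 51.4% with equal array medians and 32.6% and 33.3% after joint quantile normalization. SCARNA7 was higher by 2.70 in Tet1 while KPNA4, the importin gene that holds it, was lower by 1.01 (log2 difference -1.01). SCARNA4 and SNORA80E were higher by 2.85 and 1.86 and their host KHDC4 differed by -0.81. SNORA71A, SNORA71C and SNORA71D were higher by 2.48, 1.73 and 1.95, and SNHG17, which holds all 3, differed by -0.75, from 9.66, 9.83 and 9.61 in control to 8.91 and 9.00 in Tet1. Of the 2 measured genes listed as host transcripts by their SNHG or GAS5 symbols, 1 was higher and 1 lower in Tet1 and in HOXA9, and neither passed in shHMGA2. The hosts KPNA4, KHDC4 and SNHG17 stayed lower, and these guide RNAs higher, under both other scalings.

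**Figure D4:**
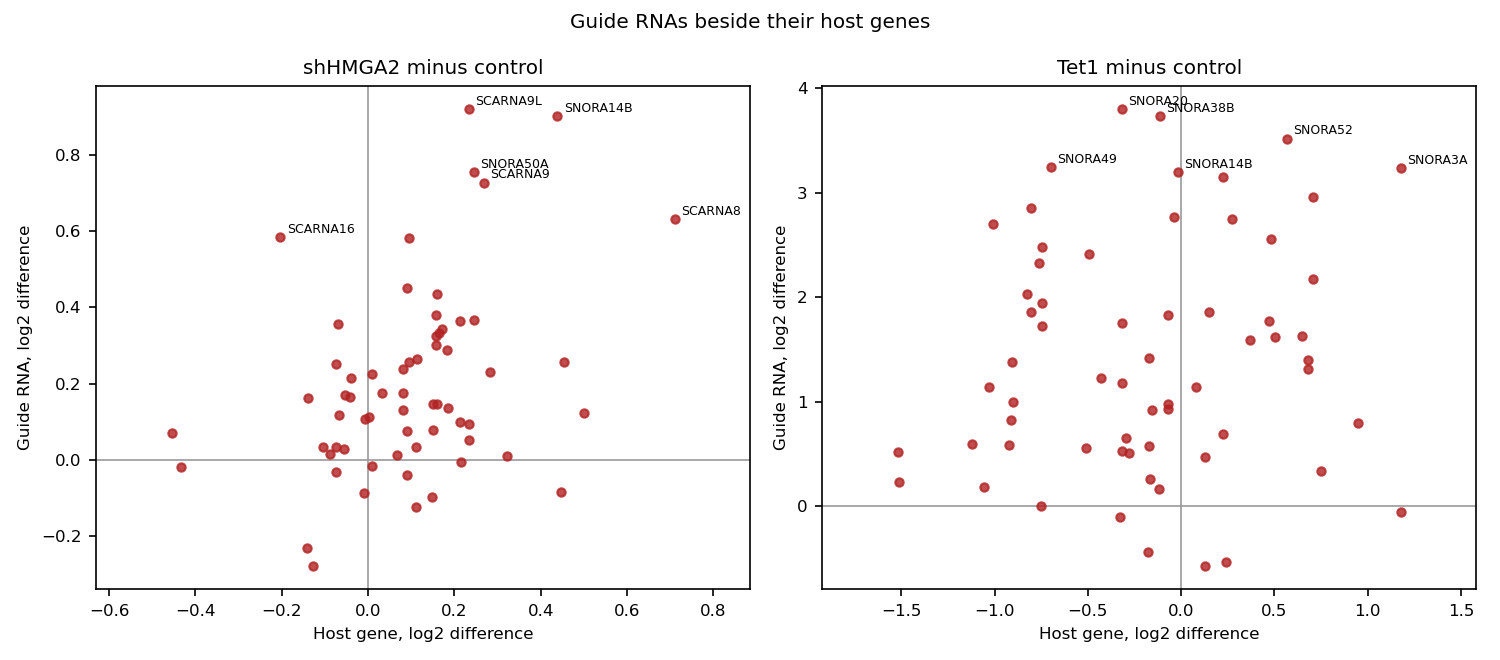
Each point is 1 of 63 pairs, with the log2 difference of the host gene on the horizontal axis and that of the guide RNA on the vertical axis, for shHMGA2 minus control and Tet1 minus control; the 6 guide RNAs with the largest difference among the pairs are named. In shHMGA2 the points lie mostly to the upper right (r 0.38), and in Tet1 high guide RNAs sit on both sides of the vertical zero line (r 0.13).

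Guide RNAs of a single host moved by different amounts. SNORA3A and SNORA3B both lie in the ribosomal protein gene RPL27A. SNORA3A read 10.53, 10.64 and 10.57 in control, 13.86 and 13.78 in Tet1 and 13.73 and 13.64 in HOXA9, while SNORA3B read 9.44, 9.82 and 9.98 in control, 9.70 and 9.68 in Tet1 and 9.92 and 9.80 in HOXA9. The first was far above control (3.24 and 3.10), and the second overlapped it (-0.06, adjusted p = 0.71, and 0.11, adjusted p = 0.45). RPL27A itself was higher by 1.18 and 1.00. SNORA20 and SNORA29, both in the chaperonin gene TCP1, differed by 3.80 and 0.53 in Tet1 and by 3.65 and 0.56 in HOXA9, and TCP1 by -0.32 and -0.33. SNORA20 read 7.10, 7.17 and 7.32 in control, 11.04 and 10.97 in Tet1 and 10.89 and 10.82 in HOXA9. SNORA29, which stayed between 6.02 and 6.79 on all arrays, lost its rise under either other scaling (-0.02 to 0.10).

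Other hosts gave smaller contrasts. In KANSL2 SNORA2A was higher by 0.47 in Tet1 and SNORA2B differed by -0.57, both at dim levels, and SNORA2A was not called under the other scalings. In TBRG4 SNORA5A, SNORA5B and SNORA5C were higher by 1.83, 0.93 and 0.98, in CNOT1 SNORA50A and SNORA46 by 1.75 and 1.18, and in ATG16L1 SCARNA6 and SCARNA5 by 2.96 and 2.18. The guide RNAs of the 7 ribosomal protein genes whose starts are printed above ran in Tet1 from SNORA52 (3.52), SNORA3A (3.24) and SNORA65 (1.40) through SNORA62 (0.73), SNORA6 (0.62), SNORA33 (0.22, adjusted p = 0.18) and SNORA3B (-0.06) to SNORA69 (-0.33) and SNORA27 (-0.84), as deposited. SNORA62 and SNORA6 did not pass with equal array medians (0.26 and 0.15). The printed starts of all 7 hosts hold the stretch of C and T, and its part in these differences was not tested.

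**Figure D5:**
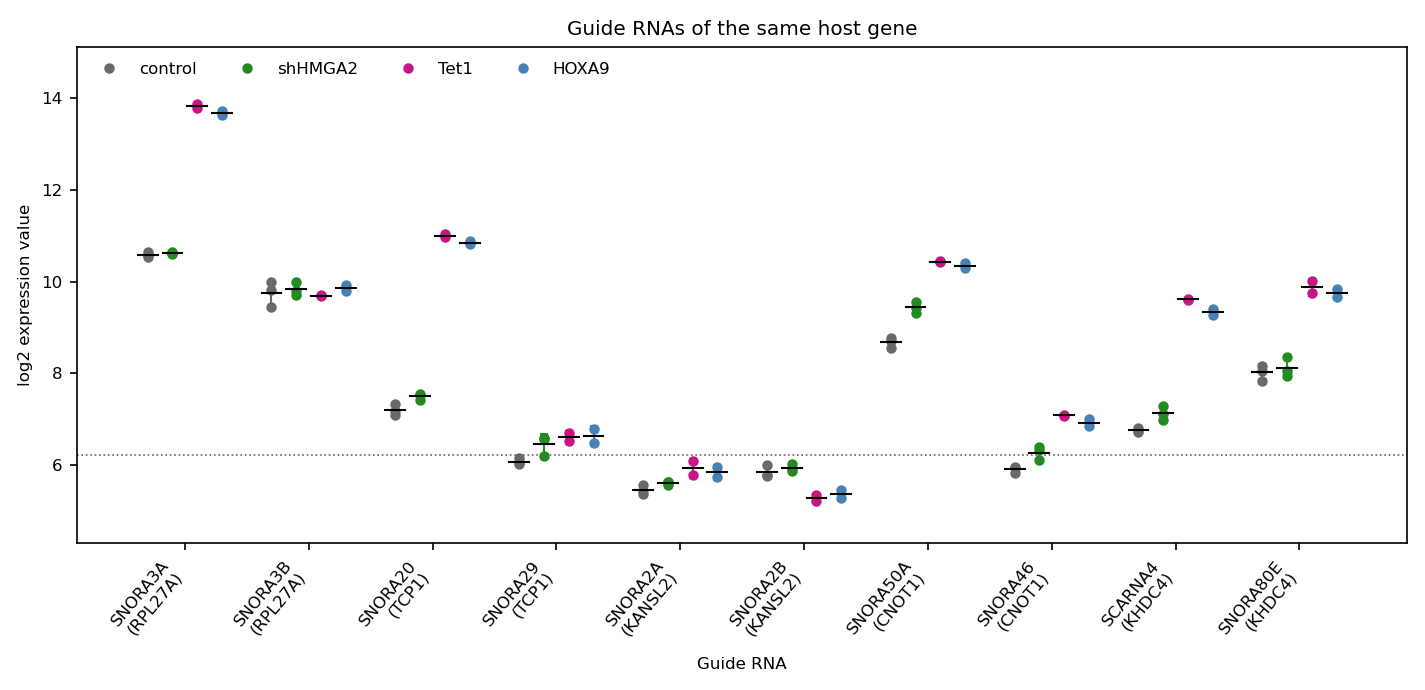
Points are log2 values of single arrays for pairs of guide RNAs that share the host gene named in brackets, by group, with black ticks for group means, bars for the SD and the dotted line for the dim level (6.22). SNORA3A (3.24) and SNORA20 (3.80) rise steeply in Tet1 and HOXA9, while SNORA3B (-0.06) and SNORA29 (0.53) from the same hosts stay near control.

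Copies of a guide RNA also differed in size, with the limit that their probes may share signal. As deposited, SNORA14A and SNORA14B were higher in Tet1 by 1.59 and 3.20, SNORA38 and SNORA38B by 1.39 and 3.74, and SNORA80A, SNORA80B and SNORA80E by 1.23, 0.51 and 1.86 (SNORA80B by 0.05, not called, with equal array medians). Among 6 SNORA70 copies the differences were 0.69 for SNORA70B, 0.34 for SNORA70C, 0.59 for SNORA70D, -0.10 for SNORA70E, 0.18 for SNORA70F and 1.14 for SNORA70G. SNORA70C and SNORA70F turned negative with equal array medians (-0.12, not called, and -0.28, called lower) and after joint quantile normalization (-0.22 and -0.05, neither called). SNORA70D no longer passed (0.12 and 0.02), and SNORA70E was called lower (-0.56 and -0.66).

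Genes of the H/ACA core and its assembly, taken as 1 list, were more often lower than higher in Tet1 and HOXA9, while the core proteins themselves were split. Of 9 core and assembly genes 2 were higher and 5 lower in Tet1 and 3 and 5 in HOXA9. The shares of all genes were 53.9% higher and 23.2% lower in Tet1, and 54% and 21.6% in HOXA9. NAF1 read 10.06, 10.06 and 10.03 in control, 8.50 and 8.64 in Tet1 and 8.59 and 8.95 in HOXA9 (-1.48 and -1.29), and DKC1 read 10.97, 11.04 and 10.86 in control, 10.34 and 10.36 in Tet1 and 10.34 and 10.34 in HOXA9 (-0.60 and -0.62). Both lay below every control array, and both were called lower under all 3 scalings. NOP10 (0.51 and 0.40) and GAR1 (0.28 and 0.37) were higher as deposited, but with array medians set equal neither passed (GAR1 -0.18 and -0.09, NOP10 0.04 and -0.06). NOLC1, a shuttling chaperone of nucleolus and Cajal body, differed by -0.52 and -0.53.

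Cajal body and SMN complex genes counted 6 higher and 6 lower of 16 in Tet1 and 6 and 7 in HOXA9, with GEMIN2 at 1.46 and 1.55, GEMIN5 at -1.01 and -0.94 and DDX20 at -0.81 and -0.74. Genes of trimming, debranching and decay counted 3 higher and 12 lower of 17 in Tet1 and 3 and 9 in HOXA9, among them TOE1 (-1.02 and -0.77), EXOSC8 (-0.90 and -0.79) and DBR1 (-0.89 and -0.84), with the exosome subunit EXOSC6 the other way (0.63 and 0.49). C/D core and assembly genes counted 1 higher and 5 lower of 7 in Tet1 and 2 and 3 in HOXA9, and nucleolus and polymerase I genes 3 and 5 of 10 and 2 and 4. These splits moved with the scaling, and so did the shares of all genes. With equal array medians the Cajal body and SMN genes counted 1 higher and 13 lower in Tet1 and 1 and 14 in HOXA9. The nucleolus and polymerase I genes counted 0 and 10 and 0 and 9. Of all genes, 21.9% were then higher and 51.4% lower in Tet1, and 20.3% and 51.1% in HOXA9. After joint quantile normalization the Cajal body and SMN genes counted 3 and 7 in each group. The nucleolus and polymerase I genes counted 2 and 5 in Tet1 and 1 and 5 in HOXA9. The shares of all genes were then 32.6% higher and 33.3% lower in Tet1, and 29.7% and 34% in HOXA9. TERC read 12.39 and 12.26 in Tet1 and 12.05 and 11.81 in HOXA9 against 9.67 to 9.87 in control (2.54, adjusted p = 3e-09, and 2.15, adjusted p = 1.1e-08), so this H/ACA RNA, which is no SNORA or SCARNA gene, was higher too, while WRAP53, which carries such RNAs to Cajal bodies, differed by -0.31 and -0.32. Blood markers were higher in 4 of 4 and fibroblast markers in 5 of 6 in both groups as deposited, with summed linear levels of 283.2 to 296.1 in control and 403.5 to 434.4 in these lines for blood, and 632 to 664 in control, 1589 to 1591 in Tet1 and 1174 to 1215 in HOXA9 for fibroblasts. With equal array medians the blood markers counted 1 higher and 1 lower in both groups (median -0.04), and after joint quantile normalization 1 and 1 in Tet1 and 2 and 1 in HOXA9. Fibroblast markers counted 4 higher and 1 lower with equal array medians and 5 and 0 after quantile normalization, in both groups. The part of these RNAs in the guide RNA differences was not tested.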

How the data were processed

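RNA of 12 labelled samples was measured on Affymetrix Human Gene 1.0 ST arrays. The authors deposited log2 values of 33297 probe sets, for which the submitters' processing notes name RMA and R 2.11; joint normalization of the arrays is not stated in the labels. In both induced groups the column of replicate 3 equals the mean of the others throughout (tolerance 1e-06), so 10 arrays were used. Probe sets with 1 symbol (19460; several 1754, none 12083) gave 18417 genes by highest mean.

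A 4-group model was fitted to all genes with limma 3.58.1 in R 4.3.3 (lmFit, eBayes; two-sided, Benjamini-Hochberg over all genes, calls under 0.05). The number of arrays limits the precision. On simulated data 88% of genes changed by 0.5 (log2) were recovered for shHMGA2 minus control and 67% for Tet1 minus HOXA9. Those genes were drawn from all genes. Guide RNAs spread more (median SD in control 0.111, against 0.075 for all genes), so their recovery may be lower. Members and lists (core proteins, telomerase, Cajal body, trimming, C/D core, nucleolus, host transcripts, small RNA classes, cell markers) were chosen with earlier results of these data known. Named genes were up to 12 called members per direction and comparison, family copies, hosts, extreme levels, neighbours of the threshold and up to 3 per list and direction; others, such as SCARNA10, the ribosomal peers of SNORA52 and the genes passing nowhere, were picked after their values were seen. Hosts were assigned by position, since the gene table gives no strand, where same-strand hosts had been planned. Other scalings, filters, fits and leaving out each array were tried. One host gene is not reported here.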

Additional observations from a re-analysis of the deposited data

How the results depend on the processing

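Guide RNAs lower in shHMGA2 numbered 1, and 2 with equal array medians, 2 with all 12 columns, 2 with a trended and robust fit and 0 to 2 with an array left out. Guide RNAs higher there numbered 25, and 15 to 25 with an array left out. Of all genes, 10.8% to 12.4% were higher and 8.85% to 12.1% lower there with an array left out. The share of all genes lower was 14.9% with equal array medians, 17.3% with all 12 columns and 12.8% with a trended and robust fit. Tet1 minus HOXA9 had 0 higher, and 3 after joint quantile normalization (SCARNA17, SNORA37 and SNORA7B), 1 with the mean of probe sets, 1 with only both groups fitted, 1 with a trended and robust fit and 9 with all 12 columns, which also gave 1 lower but counts averaged columns as replicates. In the same order 0.299%, 0.125%, 0.239%, 0.152% and 2.47% of all genes were higher, and 3.57% were lower with all 12 columns. Lower counts moved from 6 to 13 in Tet1 (equal array medians) and from 4 to 9 (joint quantile normalization) and 12 (equal array medians) in HOXA9. The share of all genes lower moved from 23.2% to 51.4% in Tet1 and from 21.6% to 34% and 51.1% in HOXA9. The cause was not tested. Deviations of same-numbered shHMGA2 and control arrays correlated at 0.16, 0.14 and 0.0017, and those of differently numbered ones at -0.17 to 0.036. Same-numbered Tet1 and HOXA9 arrays correlated at 0.17. With 2 arrays per group, deviations from the group mean are exact opposites, so the -0.17 of the others was fixed by this value and is no contrast to it. Whether replicate numbers pair the samples is thus not settled. With the replicate number as a block, 25 guide RNAs were higher and 3 lower in shHMGA2, beside 13.7% and 12.8% of all genes. In the same fit 1 was higher in Tet1 than HOXA9, beside 0.0977% of all genes, and SNORA69 in Tet1 minus control missed the threshold (-0.25, adjusted p = 0.063). No guide RNA named for the size of its change reversed its sign in that comparison under the alternatives run, and 6 of those values lost the call with some array left out, SNORA5A, SNORA29 and SNORA80B in shHMGA2, SNORA51 and SNORA69 in Tet1 and SNORA51 in HOXA9. Signal near background limits folds of genes under the dim level.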

Other observations

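The classes of guide RNA differed in length, by the RefSeq gene table. C/D box RNAs had a median of 81 bases (60 to 205) and H/ACA and Cajal body RNAs one of 135 bases (123 to 421). The 9 C/D box RNAs of 100 bases or more had a median difference of 1.32 in Tet1 and 1.29 in HOXA9 against control, and the 106 shorter ones had -0.07 in both. Over the 192 RNAs of both classes Spearman's rho between length and difference was 0.45 in Tet1 and 0.46 in HOXA9, and within the 77 H/ACA and Cajal body RNAs it was 0.06 and 0.05. These are descriptions across genes of the same arrays, and the cutoff of 100 bases was chosen after the data were seen.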
